A study of Mus musculus with 6 samples.

Results

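The mitochondrial chromosome of the mouse carries its own small set of genes, and 13 of them, all protein coding, were measured here among 41025 genes. They were taken as every gene whose Ensembl identifier pairs with a symbol that starts with mt-. The annotation lists 37 such genes, and the other 24 (2 ribosomal RNAs and 22 transfer RNAs) were not among the 41025 genes. All libraries are of total RNA from the tibialis anterior, a fast hindlimb muscle, of 8-week-old mice of the strain C57BL/6. The label was Mettl21e KO (knockout) for 3 of the 6 libraries and wild type (WT) for the other 3. Mettl21e encodes a muscle-enriched protein methyltransferase. Neither the kind of deletion nor whether each library came from its own mouse is stated, so a p-value here refers to the variation among these particular libraries, which may be technical.

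Mitochondrial DNA (mtDNA) is a compact circle that is transcribed from both strands into long precursor RNAs, which are cut apart mainly at the transfer RNAs lying between the genes. All of its proteins are core subunits of oxidative phosphorylation, the process that makes most of the ATP of an oxidative cell. They are built into complexes I, III, IV and V together with many subunits encoded in the nucleus, while complex II is encoded by nuclear genes alone. Copies of mtDNA segments are also found in nuclear chromosomes, and a sequenced fragment from such a segment can match both places.

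Between 8476591 and 10856669 fragments stood behind a library, and the values are FPKM, fragments per kilobase of gene, scaled to the depth of the library. Mettl21e itself had 1.64, 1.45 and 1.88 FPKM in KO-labelled libraries 1, 2 and 3, against 2.46, 0.309 and 1.23 FPKM in those labelled WT. The targeted transcript therefore does not tell the labels apart, and every direction here is one between labels. The 10 fast-fibre markers summed to 89463 to 92019 FPKM in libraries labelled KO and to 88879 to 95981 FPKM in those labelled WT, and the 3 heart-muscle markers summed to at most 4.29 FPKM in any library. The 9 markers of slow or oxidative fibres summed to 5782 to 7299 FPKM in libraries labelled KO. In those labelled WT the sum was higher, at 7952 to 8781 FPKM. Most of each sum was Mb (myoglobin), at 5232 to 5989.7 FPKM in libraries labelled KO and 6376 to 6689 FPKM in those labelled WT. Next was Myh2, at 297 to 987 FPKM in libraries labelled KO and 926 to 1638 FPKM in those labelled WT, with overlapping groups. Myh7 added little, at no more than 14.3 FPKM in any library. The median deviation of the 9 markers from their means over the 6 libraries did overlap between labels, at -0.93, -0.13 and -0.53 log2 units in KO-labelled libraries 1, 2 and 3, against 0.98, 0.85 and -0.42 in those labelled WT. Of the 9 markers, 9 had a lower mean in libraries labelled KO and 5 had an unadjusted p under 0.05, where 3.31% of all tested genes were lower at that p. With all libraries 0 of them passed limma's test, and without library 3 labelled WT Myh7 and Tnnc1 passed it (adjusted p = 0.0239 for both). Means were also lower in libraries labelled KO for 5 of 5 fibroblast markers (median log2 difference -0.50) and 3 of 3 endothelium markers (median -0.02). The median of all tested genes was -0.02 too, and the groups overlapped for each of these markers. Fibroblast markers summed to 205 to 286 FPKM in libraries labelled KO and 197 to 417 FPKM in those labelled WT. For endothelium the sums were 83.3 to 99.6 FPKM and 68.7 to 115 FPKM. Means were lower for 3 of 3 tested leukocyte markers (1 at an unadjusted p under 0.05) and 4 of 4 tested adipocyte markers (2 at that p). Of all 11383 tested genes, 6450 were lower. Of the 10 fast-fibre markers 7 were higher, with Myh1 at an unadjusted p under 0.05, where 1.28% of all tested genes were higher at that p. No marker of any list was at 0 in all libraries. Fibres of the slow and oxidative kind hold more mitochondria than fast glycolytic ones, and the part of any of these markers in the values below was not tested. In RNA from whole muscle, fewer cells of a type and less RNA per cell cannot be told apart.

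The mtDNA mRNAs held a large share of the fragment totals recovered from the FPKM. Of these totals 99.7% to 99.8% was on the measured genes, so fragments assigned to no measured gene are largely outside them. In libraries 1, 2 and 3 labelled KO they took 15.2%, 17.7% and 19.7% of the fragments, against 17.2%, 15.4% and 17.0% in those labelled WT. Both the lowest and the highest share were in libraries labelled KO, so the groups overlapped, and the means were 17.5% ± 2.29 and 16.5% ± 0.961 (SD, n = 3 each). Counting error was small beside that spread, with a 95% Wilson interval of 15.15% to 15.19% for library 1 labelled KO. Without library 3 labelled KO the difference of the means, 0.995 percentage points, turned to -0.110 points. These shares count only fragments assigned to the mtDNA genes, not those assigned to nuclear copies of their sequence.

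Of the 13 mRNAs, 7 had very high FPKM and 6 did not. Several of these genes share sequence with nuclear copies, described below, so FPKM is uncertain as a measure of their transcripts. The 7 with high FPKM, called abundant here, were mt-Co1, mt-Cytb, mt-Nd1, mt-Nd2, mt-Nd4, mt-Nd5 and mt-Nd6. Their means over the 6 libraries lay between 6679 and 38979 FPKM. The other 6 had means between 10.2 and 882 FPKM. The groups were split at a mean of 1000 FPKM after the values were seen. The 6 low mRNAs together made up 0.271% to 0.352% of the mtDNA fragments in libraries labelled KO and 0.276% to 0.435% in those labelled WT.

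mt-Co1 encodes the catalytic core subunit of cytochrome c oxidase (complex IV), the enzyme that passes electrons to oxygen. The gene lies on the mitochondrial chromosome of mm10 from base 5328 to 6872, on the plus strand, and is 1 exon like the other members. It was at 35067, 40044 and 44347 FPKM in KO-labelled libraries 1, 2 and 3, against 38816, 35121 and 40478 FPKM in those labelled WT. It ranked highest of all 41025 genes in each of the 6 libraries, and the groups overlapped. The log2 difference, labelled KO minus labelled WT on the log2(FPKM + 1) scale, was 0.06 (SE 0.12, 95% interval -0.21 to 0.32, limma adjusted p = 0.988).

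mt-Cytb, the cytochrome b of complex III, lies from base 14145 to 15288 and was next in rank in every library. It was at 25069.5, 28913 and 31331 FPKM in KO-labelled libraries 1, 2 and 3, against 29226, 25267 and 27446 FPKM in those labelled WT. The range of the libraries labelled KO enclosed that of the libraries labelled WT, and the log2 difference was 0.05 (SE 0.11, 95% interval -0.20 to 0.31). The gene shares no 50-base word with an annotated nuclear transcript, and its opening 120 bases at chrM:14145-14264 (GRCm38, plus strand) are shown as an example of such a gene, with the start codon in capitals.
mt-Cytb: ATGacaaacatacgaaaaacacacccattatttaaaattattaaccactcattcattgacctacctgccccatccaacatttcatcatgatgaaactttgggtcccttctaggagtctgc

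The abundant complex I genes encode subunits of the membrane arm of NADH dehydrogenase, which pumps protons. mt-Nd1 (2751 to 3707) was at 22374, 25659 and 29959 FPKM in KO-labelled libraries 1, 2 and 3, against 25988, 22773 and 23308 FPKM in those labelled WT. mt-Nd2 (3914 to 4951) was at 13356, 17346 and 19379 FPKM in libraries labelled KO, against 15605, 14047 and 15454 FPKM in those labelled WT. For both, the lowest and the highest value were in libraries labelled KO, and the groups overlapped. Their log2 differences were 0.11 (95% interval -0.18 to 0.39) and 0.14 (95% interval -0.18 to 0.45).

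mt-Nd4 (10167 to 11544) and mt-Nd5 (11742 to 13565) encode large proton-pumping subunits. mt-Nd4 was at 11536, 13745 and 15156 FPKM in KO-labelled libraries 1, 2 and 3, against 13318, 11237 and 12234 FPKM in those labelled WT. mt-Nd5 was at 7669.6, 8994 and 10274 FPKM in libraries labelled KO, against 8379, 8626 and 9111 FPKM in those labelled WT. The groups overlapped for both, with log2 differences of 0.13 (SE 0.12) and 0.04 (SE 0.11).

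mt-Nd6 (13552 to 14070) is the only mRNA of mtDNA on the minus strand and ends 14 bases inside the end of mt-Nd5. It was at 6217, 6941 and 7726 FPKM in KO-labelled libraries 1, 2 and 3, against 6605, 6211 and 6377 FPKM in those labelled WT. The groups overlapped, and the log2 difference was 0.12 (SE 0.10, 95% interval -0.11 to 0.34). The sources used here do not say whether strand was used to assign fragments. Precursor RNA of the other strand runs through this gene, so its level is uncertain.

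The abundant mRNAs shared their highest library, while the order of the libraries labelled WT differed between genes. In WT-labelled libraries 1, 2 and 3, mt-Nd1 was at 25988, 22773 and 23308 FPKM and mt-Nd5 at 8379, 8626 and 9111 FPKM. Library 3 labelled KO was the highest of the 6 libraries for all 7 abundant mRNAs. Library 1 labelled KO was the lowest for 5 of them and library 2 labelled WT for the other 2. The highest value was between 1.24 and 1.45 times the lowest. Their order by FPKM was mt-Co1, mt-Cytb, mt-Nd1, mt-Nd2, mt-Nd4, mt-Nd5 and mt-Nd6, and each neighbouring pair held this order in 6 of 6 libraries. Below them the order was mt-Nd3, mt-Atp8, mt-Atp6, mt-Co2, mt-Co3 and mt-Nd4l, where mt-Atp6 was above mt-Co2, and mt-Co3 above mt-Nd4l, in 5 of 6 libraries. Relative to the mean, the share of mt-Co1 among the mtDNA fragments varied less than its FPKM. This share was 35.1% ± 0.525 in libraries labelled KO and 35.6% ± 1.07 in those labelled WT (SD, n = 3 each). It was not so for every abundant mRNA. In libraries labelled WT mt-Nd5 had a share of 9.62% ± 0.669 and a level of 8705 ± 372 FPKM.

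**Figure D1:**
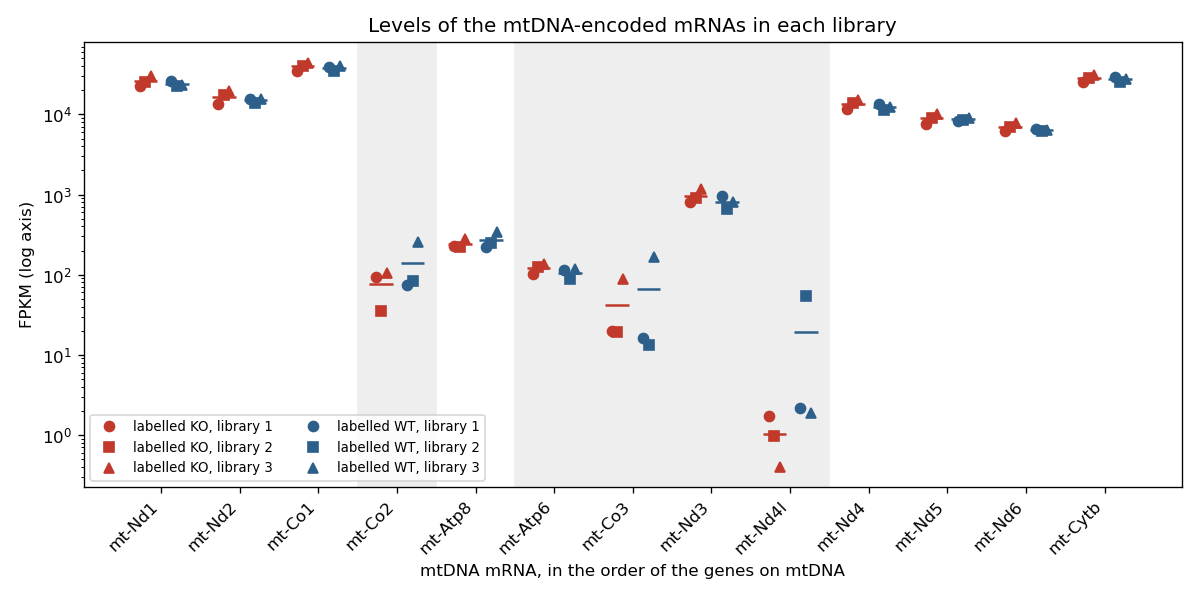
FPKM (log axis) of each mtDNA mRNA in each library, in the order of the genes on mtDNA; horizontal bars are the means of the 3 libraries of a label, and grey bands mark the 5 genes with 98.0% to 100% of their 50-base words in nuclear transcripts. The 7 abundant mRNAs have means of 6679 FPKM or more, while the 6 genes from mt-Co2 to mt-Nd4l have means of 882 FPKM or less.

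The 6 low mRNAs lie next to each other on mtDNA, from mt-Co2 to mt-Nd4l, and 5 of them, all but mt-Atp8, have a near-identical annotated copy on chromosome 1. The annotation places 7 unprocessed pseudogenes there, all on the minus strand. Aligned to mtDNA, they run from the last part of mt-Co1 to the larger part of mt-Nd4. From the first to the last aligned base they span 4654 bases on chromosome 1 (24611535 to 24616188), against 4653 bases of mtDNA (6390 to 11042), and the bases between the pseudogenes were not aligned. The aligned part was 100% identical between mt-Co2 and Gm28661 (681 bases), mt-Atp6 and Gm10925 (678 bases), mt-Co3 and Gm28437 (783 bases), and mt-Nd4l and Gm10222 (294 bases). It was also 100% identical between mt-Nd3, from its base 4, and Gm28438 over 342 bases, and between mt-Nd4 and Gm28439 over 876 bases, which are 63.6% of mt-Nd4. The last 483 bases of mt-Co1, 31.3% of the gene, matched Gm29216 with 1 mismatch. The sequence of mt-Nd4l at chrM:9877-10173 (GRCm38, plus strand) is shown because every base but its stop codon, in capitals, is also in Gm10222.
mt-Nd4l: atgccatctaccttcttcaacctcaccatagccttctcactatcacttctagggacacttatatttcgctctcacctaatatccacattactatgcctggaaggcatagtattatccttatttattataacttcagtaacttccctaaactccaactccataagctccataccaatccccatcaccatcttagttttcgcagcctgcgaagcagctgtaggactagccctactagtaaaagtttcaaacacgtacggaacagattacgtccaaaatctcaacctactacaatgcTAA

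Few bases tell the chromosome 1 copies from mtDNA. The opening 60 bases of mt-Nd3 (chrM:9459-9518) and of Gm28438 (chr1:24613060-24613119, minus strand) differ by T3C, counted from 1 at the start of mt-Nd3, and the capitals mark that base.
mt-Nd3: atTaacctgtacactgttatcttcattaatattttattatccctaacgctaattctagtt
Gm28438: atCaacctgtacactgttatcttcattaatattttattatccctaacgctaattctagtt

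The single mismatch between mt-Co1 and Gm29216 was A1066T, counted from the start of mt-Co1. The 60 bases around it (chrM:6390-6449 and chr1:24616129-24616188, minus strand) are shown with that base in capitals.
mt-Co1: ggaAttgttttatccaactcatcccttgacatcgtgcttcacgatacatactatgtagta
Gm29216: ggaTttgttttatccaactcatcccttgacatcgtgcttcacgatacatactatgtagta

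Copies on other chromosomes were less alike. Gm13339 on chromosome 2 matched 510 bases of mt-Nd2 at 96.67% identity, and 120 bases of that match (chrM:4442-4561 and chr2:22590414-22590533, minus strand) hold T579C, T603A and C638T, in capitals. Gm13339 had 1 fragment in library 3 labelled WT and 0 in each of the other 5 libraries.
mt-Nd2: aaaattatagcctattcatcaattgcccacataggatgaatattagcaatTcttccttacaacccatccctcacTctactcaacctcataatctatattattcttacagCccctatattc
Gm13339: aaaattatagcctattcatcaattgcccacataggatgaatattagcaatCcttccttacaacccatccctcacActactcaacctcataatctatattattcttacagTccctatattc

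The levels of the members stood beside how much of each sequence is shared. Between 98.0% and 100% of the 50-base words of mt-Co2, mt-Atp6, mt-Co3, mt-Nd3 and mt-Nd4l also occur in annotated nuclear transcripts, and these 5 genes had means of 10.2 to 882 FPKM. mt-Nd1, mt-Nd6 and mt-Cytb share none of their words and had means of 6679 to 27875 FPKM. In between, mt-Nd4 shares 62.2%, mt-Co1 51.1%, mt-Nd2 8.19% and mt-Nd5 7.61% of their words, with means of 8842 to 38979 FPKM. The sources used here do not say how fragments with several placements were handled, and the part of that step in these levels was not tested. The values of the 7 mtDNA genes with a chromosome 1 copy and those of the copies are therefore uncertain as measures of the transcripts. Placing all fragments of mt-Nd4 on the 502 bases outside its chromosome 1 copy would give a mean of 35332 in place of 12871 FPKM, and placing those of mt-Co1 on its 1062 such bases would give 56706 in place of 38979 FPKM. These levels were computed after the data were seen, and they only describe what the length used does to a value.

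mt-Atp8, which encodes a small subunit of ATP synthase (complex V), shares 0% of its words with annotated nuclear transcripts, and it was low. Its position (7766 to 7969) falls in the 233 bases between the aligned ends of mt-Co2 and mt-Atp6 and in the opening bases of mt-Atp6. On chromosome 1 the same 2 pseudogenes are also 233 bases apart, and the bases between them belong to no annotated transcript and were not analysed here. The gene was at 227, 224 and 276 FPKM in KO-labelled libraries 1, 2 and 3, against 221, 249 and 338 FPKM in those labelled WT. The groups overlapped (log2 difference -0.14, SE 0.16). The sequence of mt-Atp8 at chrM:7766-7969 (GRCm38, plus strand) is shown because its last 43 bases, in capitals, are also the opening bases of mt-Atp6, which is read in another frame of the same mRNA.
mt-Atp8: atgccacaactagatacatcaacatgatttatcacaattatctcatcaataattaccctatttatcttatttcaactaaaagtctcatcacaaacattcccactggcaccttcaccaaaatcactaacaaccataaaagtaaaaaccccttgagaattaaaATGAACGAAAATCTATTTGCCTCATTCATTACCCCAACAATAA

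mt-Atp6 (7927 to 8607) encodes the membrane subunit of ATP synthase through which protons flow. It was at 102, 124 and 137 FPKM in KO-labelled libraries 1, 2 and 3, against 114, 88.5 and 117 FPKM in those labelled WT. The groups overlapped (log2 difference 0.19, SE 0.14). Gm10925, the identical locus on chromosome 1, varied more, at 40.1, 93.7 and 130.0 FPKM in libraries labelled KO, against 93.6, 5.43 and 9.51 FPKM in those labelled WT. Library 1 labelled WT lay among the libraries labelled KO, and the other 2 lay far below. The log2 difference of Gm10925 was 2.11 (SE 0.90, unadjusted p = 0.0454, limma adjusted p = 0.988). It was 3.28 without library 1 labelled WT (adjusted p = 0.0754) and 1.34 without library 2 labelled WT.

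mt-Co2 (7013 to 7696) encodes the subunit of cytochrome c oxidase that takes electrons from cytochrome c. It was at 92.2, 34.7 and 106 FPKM in KO-labelled libraries 1, 2 and 3, against 74.9, 83.8 and 258 FPKM in those labelled WT. The groups overlapped, and library 3 labelled WT stood apart. The log2 difference was -0.74 (SE 0.52, 95% interval -1.94 to 0.46) and was -0.18 without that library. Its copy Gm28661 was at 30.4, 11.7 and 49.9 FPKM in libraries labelled KO, against 279, 85.8 and 104 FPKM in those labelled WT. Here the groups did not overlap, which was so for 2 of the 9 tested copies and 9.48% of all tested genes. That locus had the smallest p of the copies (log2 difference -2.33, SE 0.55, unadjusted p = 0.00257, limma adjusted p = 0.988) and did not pass the test.

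mt-Co3 (8607 to 9390) encodes the third core subunit of cytochrome c oxidase. It was at 19.7, 19.3 and 87.4 FPKM in KO-labelled libraries 1, 2 and 3, against 16.4, 13.3 and 167 FPKM in those labelled WT. Library 3 of each label was high and the other 4 libraries were low, so the groups overlapped. The log2 difference was -0.06 (SE 0.93, 95% interval -2.18 to 2.07). It was 1.08 without library 3 labelled WT and -0.76 without library 3 labelled KO. Gm28437 was at 2.89, 4.04 and 8.44 FPKM in libraries labelled KO, against 16.4, 3.88 and 39.7 FPKM in those labelled WT, with overlapping groups.

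mt-Nd3 (9459 to 9806) encodes a complex I subunit and was the most abundant of the low members. It was at 803, 893 and 1159.7 FPKM in KO-labelled libraries 1, 2 and 3, against 961, 664 and 810.2 FPKM in those labelled WT. The groups overlapped, with a log2 difference of 0.23 (SE 0.17, 95% interval -0.15 to 0.61). Gm28438 had the highest mean over the 6 libraries of the nuclear copies, at 155, 158 and 217 FPKM in libraries labelled KO, against 163, 164 and 142 FPKM in those labelled WT.

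mt-Nd4l (9877 to 10173) encodes another complex I subunit and was the lowest member. It was at 1.73, 0.968 and 0.397 FPKM in KO-labelled libraries 1, 2 and 3, against 2.19, 54.3 and 1.90 FPKM in those labelled WT. The recovered fragments were 5, 3 and 1 in libraries labelled KO, against 7, 175 and 5 in those labelled WT. The groups did not overlap in FPKM, but in fragments library 1 labelled KO and library 3 labelled WT had 5 each, and library 2 labelled WT stood far above all others. The log2 difference was -2.03 (SE 0.99, unadjusted p = 0.0730, limma adjusted p = 0.988) and was -0.64 without library 2 labelled WT.

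The split of fragments between a gene and its identical copy differed between libraries for some pairs and little for others. mt-Nd3 held 83.9%, 85.1% and 84.4% of the fragments of its pair in libraries 1, 2 and 3 labelled KO, against 85.6%, 80.3% and 85.2% in those labelled WT. mt-Co2 held 75.3%, 74.9% and 68.0% in libraries labelled KO, against 21.2%, 49.5% and 71.3% in those labelled WT. mt-Atp6 held 71.9%, 57.1% and 51.4% in libraries labelled KO, against 55.0%, 94.2% and 92.5% in those labelled WT. Each of these 3 pairs had overlapping groups. mt-Co3 held 82.7% to 91.2% in libraries labelled KO, against at most 80.8% in those labelled WT (138 of 276, 113 of 146 and 1159 of 1434 fragments), and these groups did not overlap. mt-Nd4l held 12.5% to 22.7% in libraries labelled KO, against 28.0%, 87.9% and 27.8% in those labelled WT, also without overlap but from pairs of 8 to 25 fragments in all libraries except library 2 labelled WT, which had 199. Per length of the mtDNA gene, the mt-Co2 pair summed to 122, 46.4 and 155 FPKM in libraries labelled KO, against 353, 169 and 362 FPKM in those labelled WT, without overlap. For comparison, groups did not overlap in FPKM for 9.48% of all tested genes, and no such share was computed for splits or sums of pairs. Adding the fragments of the copy to those of the mtDNA gene, an alternative chosen after seeing the data, gave log2 differences of -1.53 for mt-Co2, 0.58 for mt-Atp6, -0.40 for mt-Co3, 0.22 for mt-Nd3 and -1.34 for mt-Nd4l. None of these 5 passed the test (limma adjusted p = 0.988 for each), and mt-Co2 had an unadjusted p of 0.00828. In that fit 520 of 11376 tested genes had an unadjusted p under 0.05.

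**Figure D2:**
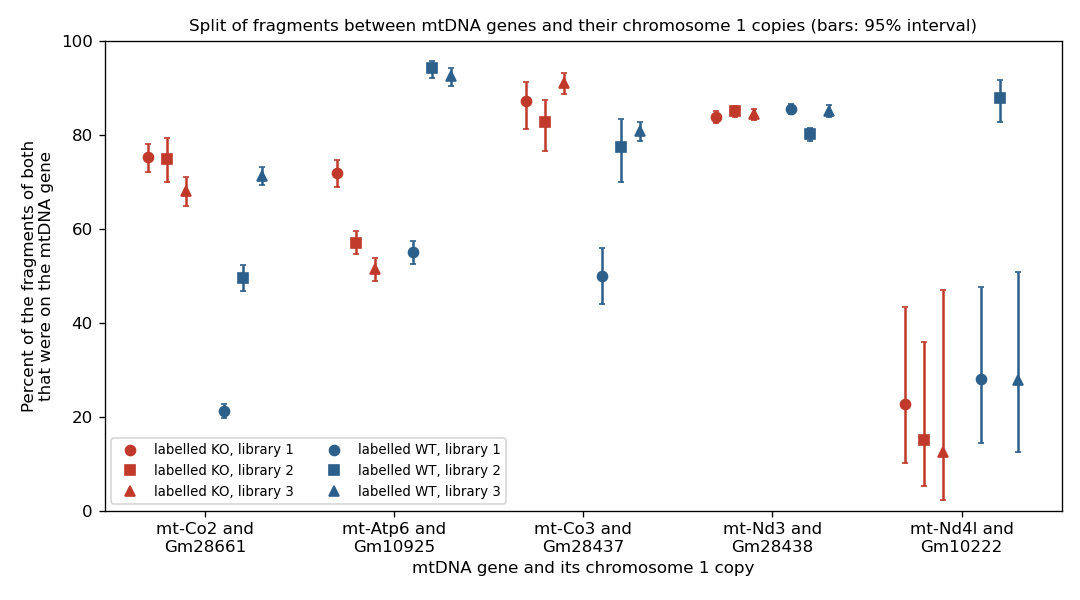
Percent of the fragments of an mtDNA gene and its chromosome 1 copy that were on the mtDNA gene, per library, with 95% Wilson intervals that cover counting error only. The mt-Nd3 pair stays between 80.3% and 85.6% in all 6 libraries, while the mt-Co2 pair ranges from 21.2% to 75.3%.

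Across the comparison of labels, 0 of the 13 mtDNA mRNAs passed limma's test, as did 0% of the 11383 tested genes (0 genes). At an unadjusted p under 0.05 there were 0 of 13 members, against 4.59% of tested genes (1.28% higher and 3.31% lower in libraries labelled KO). With limma voom on recovered fragments the same counts were 0 and 0, while 8 of the other alternatives put 1 or 2 members at an unadjusted p under 0.05. These were mt-Nd4l, mt-Co2 and, without library 1 labelled KO, mt-Nd2. Only mt-Nd4l, 1 of 13 members, had groups without overlap in FPKM, against 9.48% of tested genes. The median log2 difference of the members was 0.06, with 9 higher and 4 lower in libraries labelled KO, where the median of tested genes was -0.02. The 7 abundant members all had a higher mean in libraries labelled KO (median 0.11), but only 3 of them did without library 3 labelled KO and 5 without library 2 labelled WT. Under quantile normalization mt-Nd1, mt-Co1 and mt-Cytb, which keep their rank in every library, have a difference of 0 by construction. Of the 6 low members, 2 were higher and 4 lower (median -0.10).

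**Figure D3:**
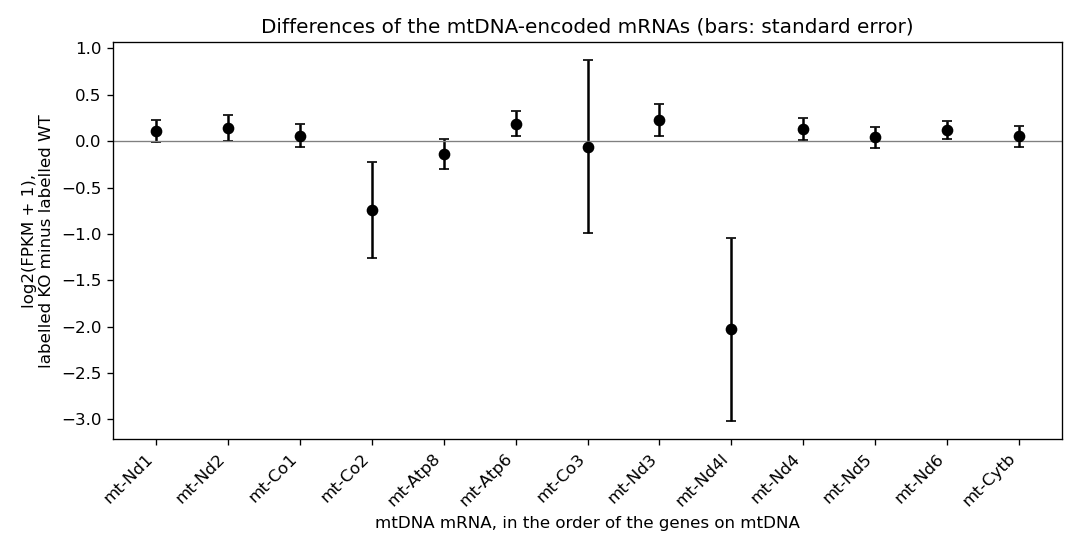
Difference in log2(FPKM + 1), labelled KO minus labelled WT, of each mtDNA mRNA with its standard error from limma. The 7 abundant mRNAs lie between 0.04 and 0.14, and the largest errors belong to mt-Nd4l (0.99), mt-Co3 (0.93) and mt-Co2 (0.52).

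Ratios between neighbouring members were compared next, since they do not depend on the scaling of a library. The ratio of mt-Nd6 to mt-Cytb, neighbours on opposite strands, was 0.248, 0.240 and 0.247 in libraries 1, 2 and 3 labelled KO, against 0.226, 0.246 and 0.232 in those labelled WT. The groups overlapped (exact two-sided permutation test, p = 0.200, n = 3 each, adjusted over 3 ratios 0.30). The ratio of mt-Atp8 to mt-Atp6, which share an mRNA, was 2.22, 1.80 and 2.01 in libraries labelled KO, against 1.94, 2.82 and 2.89 in those labelled WT (exact permutation p = 0.30). The ratio of mt-Nd4l to mt-Nd4, also of 1 mRNA, was 2.6e-05 to 1.5e-04 in libraries labelled KO and 1.6e-04 to 0.00483 in those labelled WT (exact permutation p = 0.1, adjusted 0.30). With 3 against 3 libraries no p below 0.1 is possible, and the fragment counts behind mt-Nd4l are those given above.

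The nuclear genes for the partner subunits of complexes I, III, IV and V, with those of complex II, showed no member past the test. Of 81 genes, all tested, 0 passed limma's test, and 0 had an unadjusted p under 0.05, against 4.59% of all tested genes. Of the 81, 23 were higher and 58 lower in libraries labelled KO (median log2 difference -0.04). This median was 0.01 with library medians subtracted, 0.0039 with quantile normalization, 0.0007 with library weights and 0.03 without library 1 labelled WT. Groups did not overlap for 4 of the 81, against 9.48% of all tested genes. Among all tested genes 43.3% had a mean difference above 0. Among those with a mean of at least 5 FPKM, the 4 with the smallest p were Cox8a, Ndufb3, Sdha and Ndufa1. Cox8a, a small complex IV subunit, was at 54.6, 59.1 and 48.3 FPKM in KO-labelled libraries 1, 2 and 3, against 57.7, 62.7 and 66.4 FPKM in those labelled WT. Sdha, the flavoprotein of complex II, was at 1499.6, 1432 and 1467 FPKM in libraries labelled KO, against 1383, 1333 and 1366 FPKM in those labelled WT, and its groups did not overlap (log2 difference 0.11, limma adjusted p = 0.988). The complex I subunit genes Ndufb3 and Ndufa1 averaged 223 and 323 FPKM in libraries labelled KO, against 249 and 358 FPKM in those labelled WT.

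The most abundant nuclear partners were below the abundant mtDNA mRNAs and above the low ones in FPKM. Atp5b, the catalytic subunit of ATP synthase, averaged 3633 ± 251 FPKM in libraries labelled KO and 3444 ± 24.8 FPKM in those labelled WT (SD, n = 3 each). Atp5a1, its partner in the catalytic head, averaged 1680.5 ± 191 FPKM in libraries labelled KO and 1601 ± 41.0 FPKM in those labelled WT. The library that was high differed between the genomes. Library 3 labelled KO was highest for the abundant mtDNA mRNAs, with a median deviation from the mean of the 6 libraries of 0.22 log2 units, while it was at 0.01 for the nuclear partners. Library 1 labelled WT was highest for the nuclear partners at 0.14, while it was at -0.0011 for the abundant mtDNA mRNAs. The markers of slow or oxidative fibres had deviations of -0.53 and 0.98 in these libraries.

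**Figure D4:**
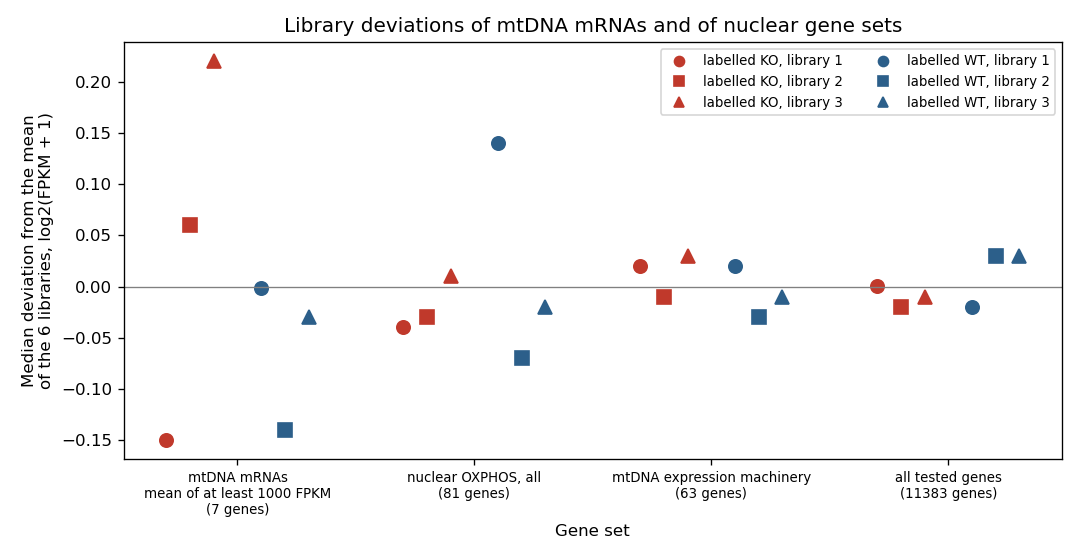
Median deviation of each gene set from its mean over the 6 libraries, in log2(FPKM + 1) units, per library. The abundant mtDNA mRNAs range from -0.15 to 0.22, the nuclear oxidative phosphorylation (OXPHOS) genes from -0.07 to 0.14 and all tested genes from -0.02 to 0.03.

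Genes that copy, transcribe and process mtDNA and its RNA did not pass the test either. Of 67 genes 63 were tested, and 0 passed limma's test. There were 34 higher and 29 lower in libraries labelled KO, with a median log2 difference of 0.02. At an unadjusted p under 0.05 were 2 members, against 4.59% of all tested genes. Of these, 1 was higher and 1, with a mean under 5 FPKM, was lower in libraries labelled KO. Among the genes of this list with a mean of at least 5 FPKM the smallest p belonged to Mto1, which helps to modify mitochondrial transfer RNAs. It was at 17.3, 19.0 and 17.5 FPKM in KO-labelled libraries 1, 2 and 3, against 14.9 to 15.6 FPKM in those labelled WT, and the groups did not overlap (log2 difference 0.23, SE 0.09, unadjusted p = 0.0291, limma adjusted p = 0.988).

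Lrpprc, whose protein stabilises mtDNA mRNAs, was at 58.2, 55.4 and 53.8 FPKM in KO-labelled libraries 1, 2 and 3, against 53.1, 49.1 and 46.4 FPKM in those labelled WT. Every library labelled KO was above every library labelled WT, but the difference did not pass (log2 difference 0.17, limma adjusted p = 0.988). Rrm2b, a ribonucleotide reductase subunit that supplies nucleotides for mtDNA, averaged 29.0 FPKM in libraries labelled KO and 25.9 FPKM in those labelled WT, without overlap. Angel2 averaged 19.1 FPKM in libraries labelled KO and 17.0 FPKM in those labelled WT, with overlap. In this list 6 of 63 tested genes did not overlap between labels, where 9.48% of all tested genes did not. The highest members were Fastk and Grsf1, both linked to mitochondrial RNA, with means of 145 and 114 FPKM in libraries labelled KO, against 151 and 109 FPKM in those labelled WT.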

How the data were processed

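The authors deposited FPKM values, 1 per Ensembl gene and library. TopHat2 2.1.1, the build mm10 and Cufflinks 2.2.1 are named in the submitters' processing notes. The sources used here do not give the RNA selection, annotation, strand or handling of fragments with several placements. Whole fragments were recovered from the FPKM as the total and gene length that make all 6 values whole, within 0.002 of a fragment plus rounding. This held for 23559 of 23559 genes above 0, and for the 13 mtDNA genes the length equalled the annotated one. Lengths from 20 to 110000 bases were tried, so whole values alone are weak support. Over all these genes the length found equalled the summed annotated exons for 28.9%. Wilson intervals cover counting error only, while the intervals of log2 differences are from limma's fit to the libraries.

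For the test, limma 3.58.1 in R 4.3.3 was fitted with a trend to log2(FPKM + 1) of the 11383 genes averaging 1 FPKM or more, with Benjamini-Hochberg adjustment over all of them and a threshold of 0.05. The fit was also run on simulated data with the same setting of spread for every gene. That run cannot show how the fit does at the uneven spread seen here. Alternatives were other scalings, pseudocounts, filters and weights, a replicate block, limma voom with TMM factors on recovered fragments, each library left out, and, chosen after seeing the data, the copy's fragments added. Positions and transcripts are from GENCODE M21 (GRCm38, the assembly of mm10). Words of 50 bases were searched on both strands, and 15 nuclear genes held one, of which 14 were in the tables. Sequences were aligned with Biopython 1.88. The sequences printed are from the GENCODE transcripts. Named genes are all members and Mettl21e, up to 5 nuclear copies by mean, and of each list the 4 smallest p with a mean of at least 5 FPKM and the 2 highest means. The members and lists were chosen with earlier results of these data known. A planned ratio of the ribosomal RNAs was not computed, since they were not among the 41025 genes.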

Additional observations from a re-analysis of the deposited data

How the results depend on the processing

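The count of called mtDNA mRNAs was 0 under all 18 alternatives, as were those of the nuclear OXPHOS and mtDNA expression lists. Over all genes, leaving out 1 library called 0 to 3 genes, none of them a member (1 without library 3 labelled KO, 1 without library 1 labelled WT, 3 without library 3 labelled WT, of which Myh7 and Tnnc1 are slow-fibre markers). Unadjusted counts over all genes ranged from 339 with a mean of at least 5 FPKM, among fewer genes tested, to 1413 with library weights, against 523. The difference of mt-Co3 turned to 0.01 with limma voom and ranged from -0.76 to 1.08 when 1 library was left out. Leaving out 1 library also turned mt-Nd1 (-0.0013 to 0.21), mt-Co1 (-0.02 to 0.15), mt-Cytb (-0.02 to 0.14), mt-Nd5 (-0.07 to 0.14), mt-Atp8 (-0.27 to 0.04), Gm29216 (-0.59 to 0.42), Atp5a1 (-0.03 to 0.13) and Mettl21e (-0.07 to 0.63). The cause was not tested. The median of the members ranged from -0.02 to 0.20, and the difference in mtDNA share from -0.110 to 2.18 percentage points, when 1 library was left out. No scaling moved the median of all genes by more than 0.1. Over the tested genes, same-numbered libraries did not deviate together (correlations 0.024, -0.041 and 0.023). These correlations cannot exclude that the numbers pair the libraries, since a shared step could act on few genes. mt-Co3, for one, was highest in library 3 of each label. The replicate block called 0 members and 0 genes, with a median of the members of 0.06, mt-Co3 at -0.06, and 2 members (mt-Co2 and mt-Nd4l) and 472 genes at an unadjusted p under 0.05, against 0 and 523 without it. A single member was at that p with either other pseudocount, library weights, the copy's fragments added, and without library 1 labelled KO or library 1 or 3 labelled WT. At these depths the abundant mRNAs rest on 29264 or more fragments a library and mt-Nd4l on as few as 1.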
